A study of Homo sapiens with 3 samples.

Results

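Condensin and cohesin are ring-shaped protein complexes built around paired SMC ATPases, and the genes described here encode their subunits. The set holds 10 genes, with 7 condensin genes (SMC2, SMC4, NCAPD2, NCAPG, NCAPH, NCAPD3 and NCAPG2) and 3 cohesin genes (SMC1A, SMC3 and RAD21). They were found by matching the RefSeq accession of each array probe, without its version, to gene symbols, and every matched probe was taken. This gave 15 probes of the 25705 probes that received a gene name, and 10 of 19699 genes. This rule uses no measured value. Each of the 15 probes had 1 spot per array.

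The cells were PANC-1, a cell line established from a human pancreatic carcinoma, and the study asked how they respond when protein phosphatase 2A (PP2A), which takes phosphate off proteins, is inhibited. Its title concerns the step into mitosis. Total RNA was labelled with Cy3 and hybridised to 1-colour human arrays, on which the brightness of a spot measures the matching transcript. There were 3 arrays, 1 for untreated control cells, 1 for cells given 20 µM cantharidin and 1 for cells given 20 µM okadaic acid, each for 24 h. The label of the okadaic acid sample states this dose, while the treatment text can be read as giving it for cantharidin alone. All cells were of the same line, and both agents are PP2A inhibitors. Since each group had 1 array, no difference has a replicate check, no test across arrays was possible, and the precision of every value is limited by the number of arrays. The arrays lay on 1 slide and were scanned once, so position on the slide and group cannot be told apart. In RNA from a whole culture, fewer cells in a given state and less RNA per cell cannot be told apart either.

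In mitosis condensin folds chromatin into compact chromosomes. SMC2 and SMC4 form its ATPase pair, which joins NCAPD2, NCAPG and NCAPH in condensin I, found in the cytoplasm until the nuclear envelope opens, or NCAPD3, NCAPG2 and NCAPH2 in condensin II, which is nuclear through interphase. Cohesin, in which SMC1A and SMC3 are closed into a ring by the kleisin RAD21, holds sister chromatids together from S phase until anaphase and extrudes chromatin loops in interphase. Many genes for mitotic proteins are transcribed late in the cell cycle through a cell cycle genes homology region (CHR) element close to the gene start, often with CCAAT boxes upstream, while E2F and Sp1 words are common in promoters of cell cycle genes in general.

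Since the promoter elements of late cell cycle genes are known, the RefSeq promoter windows of the subunits (GRCh38.p14, from 250 bases before to 50 bases after the gene start) were searched on both strands for the CHR words TTTGAA and TTCGAA, for CCAAT, for the E2F words TTTCCCGC, TTTCGCGC, TTTGCCGC and TTTGGCGC and for the Sp1 word GGGCGG. Windows on the chromosome that carries RAD21 were left out of the search, so 9 of the 10 genes had windows, all but RAD21. A CHR word lay in a window of 6 of 7 condensin genes and of 1 of 2 cohesin genes, SMC3. It lay in 16.4% of the 35116 windows searched, and 19.5% of their 27305 genes had it in at least 1 window. Shares of all genes for the other words are over the same 27305 genes. The stretches below hold these words, with the word in capitals, and CDCA5, which encodes the cohesin protector sororin, is added because its signal fell most among the regulators of cohesin described further on.
SMC2 (chr9:104094222-104094321, plus strand): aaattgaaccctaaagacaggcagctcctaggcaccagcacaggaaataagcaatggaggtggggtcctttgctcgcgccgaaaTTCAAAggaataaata
SMC4 (chr3:160399491-160399590, plus strand): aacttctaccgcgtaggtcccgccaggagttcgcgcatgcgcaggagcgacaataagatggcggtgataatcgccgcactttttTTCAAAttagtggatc
NCAPD2 (chr12:6493873-6493972, plus strand): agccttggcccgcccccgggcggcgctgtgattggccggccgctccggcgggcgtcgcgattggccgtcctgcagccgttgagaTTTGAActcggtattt
NCAPG (chr4:17810860-17810959, plus strand): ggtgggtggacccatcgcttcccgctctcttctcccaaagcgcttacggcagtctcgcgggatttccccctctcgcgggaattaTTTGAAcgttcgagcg
NCAPD3 (chr11:134223955-134224054, minus strand): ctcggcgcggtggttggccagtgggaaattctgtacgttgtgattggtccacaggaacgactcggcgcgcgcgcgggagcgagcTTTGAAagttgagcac
NCAPG2 (chr7:158704755-158704781, minus strand): ccggcgggtgcgTTTGAAtctggtccg
SMC3 (chr10:110567460-110567559, plus strand): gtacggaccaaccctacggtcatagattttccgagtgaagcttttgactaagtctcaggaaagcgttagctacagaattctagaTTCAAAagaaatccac
CDCA5 (chr11:65084051-65084150, minus strand): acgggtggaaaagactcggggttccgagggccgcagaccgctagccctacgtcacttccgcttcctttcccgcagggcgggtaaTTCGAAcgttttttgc

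The capitals read TTTGAA or its reverse complement TTCAAA in the 7 subunit stretches and TTCGAA in CDCA5. The word began 3 bases before the gene start in SMC2 and in NCAPD3, 35 bases before it in NCAPG, 75 bases in SMC4, 145 bases in NCAPD2 and 151 bases in SMC3. In NCAPG2 it began 35 bases after the start, inside the transcribed part, and in CDCA5 26 bases before it. SMC2, SMC4 and NCAPD3 have windows for 2 starts each and held the word in 1 of the 2. No CHR word was found in these windows of NCAPH and SMC1A. NCAPD2 also held 4 CCAAT words, NCAPD3 held 2 and NCAPH held 1, so that 3 of 7 condensin genes had one, beside 39.7% of all genes. E2F words were found in NCAPD3 and SMC1A, 1 each, and in 3.99% of all genes. Sp1 words were found in 5 of 7 condensin and 2 of 2 cohesin genes, and in 48.3% of all genes. E2F and Sp1 words can overlap each other. Each match is a run of letters in a window and was not measured as a binding site in these cells.

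**Figure D1:**
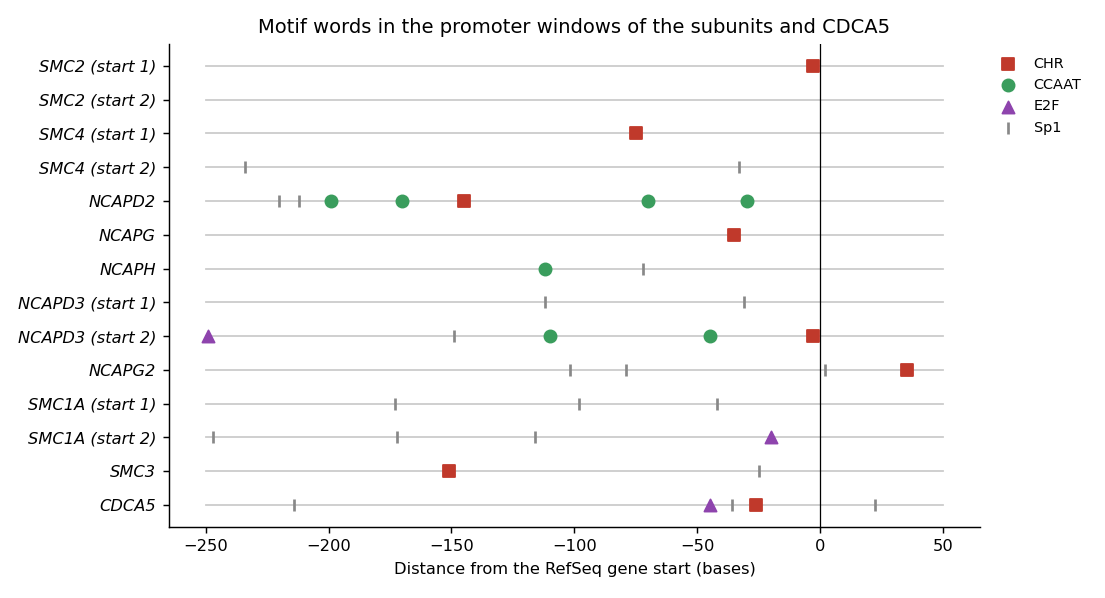
Start positions of the searched words in the 300-base RefSeq windows of 9 subunit genes and CDCA5, as the distance in bases from the gene start (vertical line), with 1 row per annotated start. Red squares mark CHR words, which lie between 151 bases before and 35 bases after the start, green circles CCAAT, purple triangles E2F and grey bars Sp1 words.

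The arrays were compared on 34041 probes. Signal well above background was flagged for 24768 of them in control cells, for 25103 under cantharidin and for 23071 under okadaic acid. The dimmest probe with that flag, called the floor, had an intensity of 35.0, 21.9 and 58.0 in the same order, so the okadaic acid array measured dim transcripts least well. No spot was saturated. The 5 genes listed as markers of this carcinoma line, the keratins KRT7, KRT8, KRT18 and KRT19 and the mesenchymal filament gene VIM, were well above background on all 3 arrays, with control intensities between 2503 and 311685. Of 9 genes that mark leukocyte, endothelial, acinar and islet cells, 7 were also well above background on all 3 arrays, with intensities up to 792 on the control, 618 on the cantharidin and 765 on the okadaic acid array, and the other 2, PECAM1 and CPA1, on none by their brightest probe, so signal well above background alone did not separate cell types on these arrays. Each intensity below is given with the error that the scanner software modelled for the spot, which covers the spot alone and not the spread between cultures. Probes printed on 8 to 10 spots had a median spot SD of 0.28 to 0.30 on the log2 scale below an intensity of 100, and of 0.05 to 0.09 above it.

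Of the 10 subunit genes, 7 were well above background on all 3 arrays, and 9 on at least 1. NCAPH was not well above background anywhere. Before log2 differences were taken, every array was divided by its own 75th percentile of intensity, namely 784 in control cells and, with treatment, 713 (cantharidin) and 936 (okadaic acid). A gene was compared where its brightest probe had signal well above background on 1 or both of the arrays in question, and a difference of at least 1.5-fold, the threshold that the study applied to these arrays, was called higher or lower. A fold is written as "at least" where 1 of the arrays was not well above background, taken against that array's floor or the dim signal if higher.

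SMC2, the ATPase subunit of both condensins, had an intensity of 248 ± 25.8 in control cells, 13.5 ± 5.64 under cantharidin, where it was not well above background, and 111 ± 16.4 under okadaic acid. The control array was highest, and the 3 intensities lay apart by more than their modelled errors. With cantharidin the signal was at least 10.3-fold lower, which is a log2 difference of -3.36 with the dim spot set to the floor, and with okadaic acid 2.68-fold lower (-1.42 ± 0.26). The size depended on the background correction, since the normexp correction gave -1.80 under cantharidin and -1.0 under okadaic acid, both still past the threshold. A second SMC2 probe read 105 ± 13.6 in control cells and was not well above background under either agent, at 12 ± 6.18 and 14.0 ± 14.0, which is at least 4.36-fold and at least 2.16-fold lower.

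SMC4, the other ATPase of the pair, gave a different picture. Its brightest probe read 2253 ± 225 in control cells, 1405 ± 141 under cantharidin and 2262 ± 227 under okadaic acid. After scaling, the differences from control were -0.54 ± 0.20 and -0.25 ± 0.20, or 1.46-fold and 1.19-fold lower, short of the threshold. Its second probe read 1325 ± 133, 1175 ± 118 and 1482 ± 149, with differences of -0.04 and -0.09. SMC4 was therefore the condensin gene measured on all 3 arrays with the smallest differences. The cantharidin value sat close to the threshold and passed it, at -0.68, without scaling and also when differences were centred within 16 blocks of the array.

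**Figure D2:**
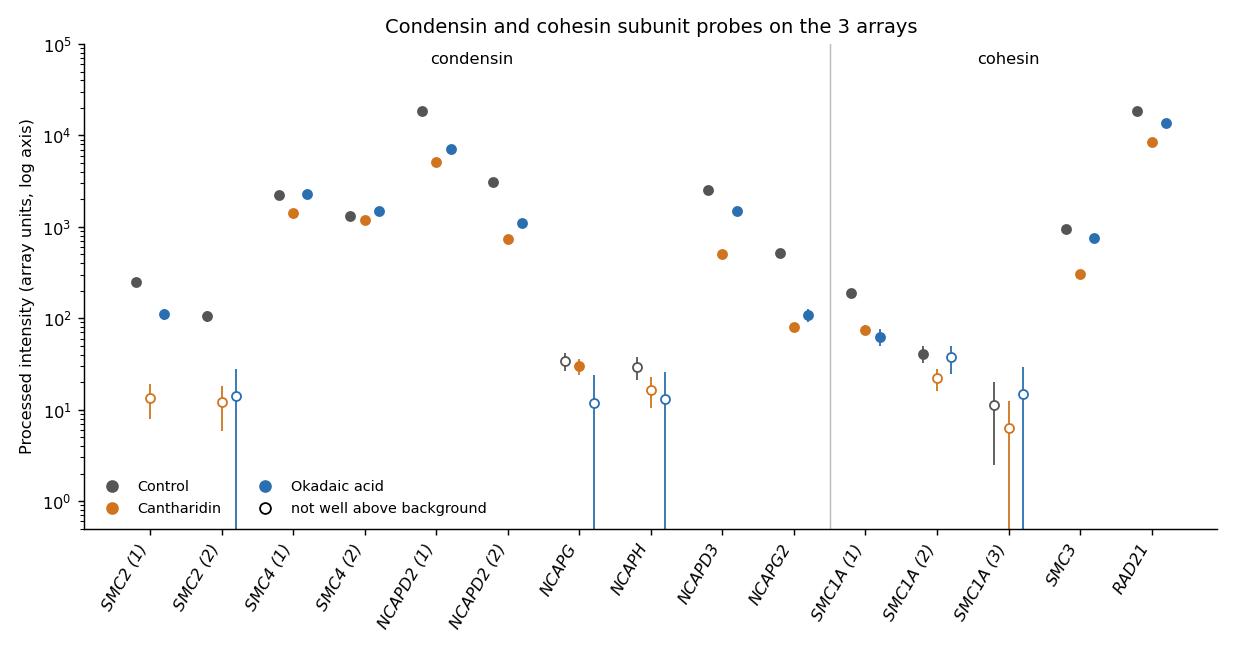
Processed intensity (array units, log axis) of the 15 probes of the 10 subunit genes on the control (grey), cantharidin (orange) and okadaic acid (blue) array, with bars for the modelled spot error, which run off the axis where the error is as large as the value, and open symbols for spots not well above background. The cantharidin points of SMC2, NCAPD2, NCAPD3, NCAPG2, SMC1A, SMC3 and RAD21 lie below their control points. The points of SMC4 lie close together, and those of NCAPG and NCAPH lie at the foot of the range.

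Among the condensin I genes, only NCAPD2 was bright enough to follow. NCAPD2 encodes a HEAT-repeat subunit, and its brightest probe read 18711 ± 1871 in control cells, 5137 ± 514 under cantharidin and 7056 ± 706 under okadaic acid. The control value stood above both treated values, and these lay close to each other. The fall was 3.31-fold with cantharidin (-1.73 ± 0.20) and 3.17-fold with okadaic acid (-1.66 ± 0.20). The second probe read 3099 ± 310, 733 ± 73.5 and 1105 ± 111 and gave like folds, 3.84 and 3.35 lower. Over 11 alternatives in which NCAPD2 had a value, the difference under cantharidin stayed between -1.86 and -1.66 and that under okadaic acid between -1.78 and -1.41.

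NCAPG, the other HEAT-repeat subunit of condensin I, read 34.2 ± 7.74 in control cells, 29.9 ± 6.16 under cantharidin and 11.9 ± 11.9 under okadaic acid. It was well above background on the cantharidin array alone, where the floor was lowest, so no fold can be given in any comparison. NCAPH, the kleisin of condensin I, read 29.2 ± 8.19, 16.5 ± 6.03 and 13 ± 13. Both genes lay at the limit of what these arrays measured, and a change in either was not detectable.

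Of the condensin II genes, NCAPD3 and NCAPG2 were lower under both agents, and NCAPH2 is described after them. NCAPD3, a HEAT-repeat subunit, read 2528 ± 253 in control cells, 505 ± 50.9 under cantharidin and 1507 ± 151 under okadaic acid. The okadaic acid value lay between the other 2. NCAPD3 was thus lower than in control cells by 4.55-fold with cantharidin (-2.19 ± 0.21) and by 2.0-fold with okadaic acid (-1.0 ± 0.20). NCAPG2, the second HEAT-repeat subunit, read 512 ± 51.9, 79.9 ± 9.91 and 109 ± 17.0. Its treated values were alike, and the falls were 5.83-fold (-2.54 ± 0.23) and 5.61-fold (-2.49 ± 0.27). The second was the largest difference among the subunits under okadaic acid, with 3.64% of all genes compared below it. The okadaic acid signal of NCAPG2 was 1.88 times that array's floor. The normexp correction reduced the NCAPG2 differences to -1.75 and -1.71, and the deposited normalized table raised them to -2.90 and -3.05. With the normexp correction NCAPD2 differed by -1.70 under okadaic acid, nearly the same as NCAPG2.

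The kleisin of condensin II, NCAPH2, was listed with the other genes of the pathway and moved the opposite way by its brightest probe. That probe read 4069 ± 407 in control cells, 6388 ± 639 under cantharidin and 7810 ± 781 under okadaic acid, 1.73-fold and 1.61-fold higher. Another probe gave 2.08-fold and 1.92-fold higher signals, while the last one read 973 ± 97.6, 619 ± 62.2 and 2145 ± 215, which was 1.43-fold lower with the first agent and 1.85-fold higher with the other. The 3 probes disagreed in direction under cantharidin, and the okadaic acid call of the brightest probe was lost with median scaling (0.56) and with centring in blocks (0.49).

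Of the cohesin genes, SMC3, an ATPase of the ring, read 938 ± 94.0 in control cells, 303 ± 30.8 under cantharidin and 750 ± 76.0 under okadaic acid. The cantharidin value stood apart from the other 2. Relative to control cells, SMC3 was lower by 2.81-fold (-1.49 ± 0.21) with cantharidin and by 1.49-fold (-0.58 ± 0.21) with okadaic acid, the latter just short of the threshold. With median scaling the okadaic acid difference was -0.70 and passed it. RAD21, the kleisin that separase cuts at anaphase, read 18372 ± 1837, 8547 ± 855 and 13633 ± 1363. The falls were 1.95-fold (-0.97 ± 0.20) and 1.61-fold (-0.69 ± 0.20), the second just past the threshold, and without scaling the okadaic acid difference was -0.43.

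SMC1A, the second ATPase of the ring, was the one gene among the 8 compared with both agents whose difference from control was more negative under okadaic acid. With median scaling this held for NCAPD2 and NCAPG2 too. The brightest SMC1A probe read 189 ± 20.2 in control cells, 74.3 ± 9.30 under cantharidin and 62.6 ± 13.5 under okadaic acid. Both treated values lay below the control value, 2.31-fold (-1.21 ± 0.24) and 3.60-fold (-1.85 ± 0.35). A second probe was dim, at 41.1 ± 8.46 in control cells and not well above background under either agent (22 ± 5.84 and 37.5 ± 12.7), which is at least 1.70-fold lower under cantharidin and gives no fold under okadaic acid. The remaining probe stayed too dim on each array. With the median over its probes in place of the brightest, SMC1A differed by -1.12 under okadaic acid. The okadaic acid signal of the brightest probe was only 1.08 times that array's floor, so the size of its fall is poorly measured. That difference was -1.14 with the normexp correction and -2.40 in the deposited normalized table.

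**Figure D3:**
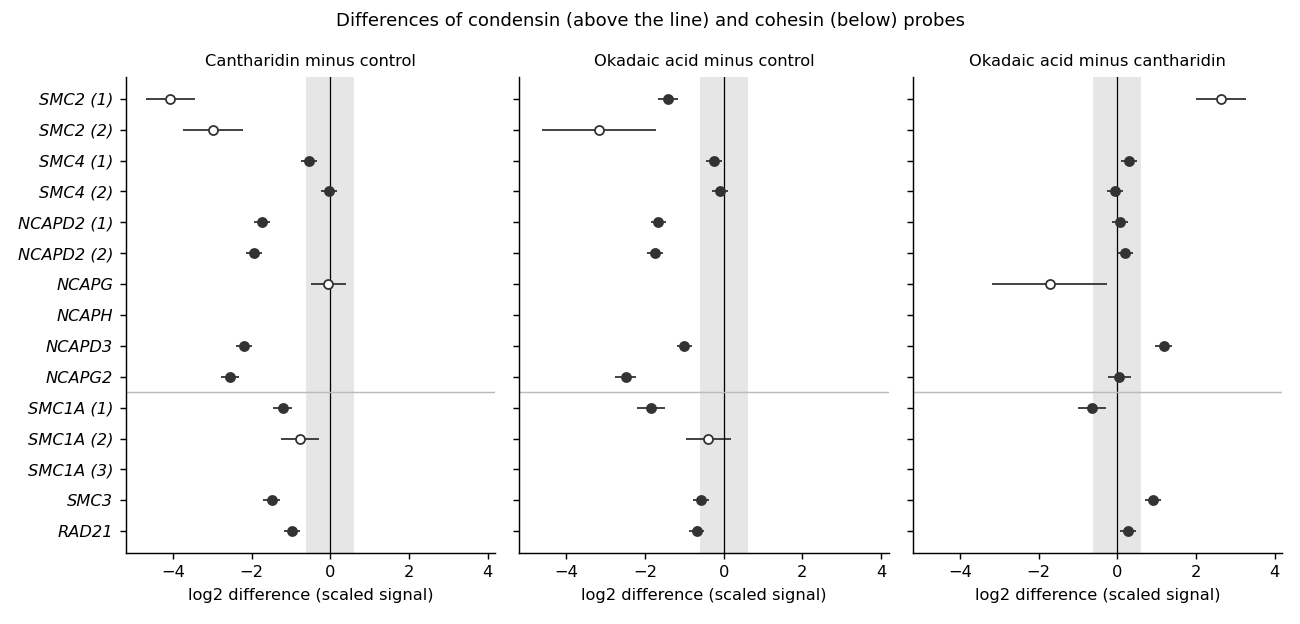
Log2 differences of the scaled signal for each subunit probe in the 3 comparisons, with bars for the modelled spot error, open symbols where 1 array was not well above background and the size is therefore not measured, no symbol where neither was, and a grey band for differences under 1.5-fold. In the panels against control no point lies to the right of the band, while in the panel of okadaic acid minus cantharidin SMC2, NCAPD3 and SMC3 lie to its right and most others within it.

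Counted together, 7 of the 9 subunit genes compared were lower under cantharidin and none was higher, beside 34.1% of 16644 genes lower and 27.5% higher on the whole array. The exceptions were SMC4 and NCAPG. SMC2 entered this comparison through the control array alone and NCAPG through the cantharidin array alone, so the count over the 7 genes measured on all 3 arrays is given too, and it was 6 lower. The median difference was -1.49, and it was also -1.49 over those 7 genes and with dim signals set to the floor, beside -0.16 for all genes compared. Condensin genes had a median of -1.96 over 6 genes and cohesin genes of -1.21 over 3 genes. Both complexes thus lay below the median gene, the condensin genes by more, a difference that was not tested.

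Under okadaic acid 6 of the 8 subunit genes compared were lower and none was higher, beside 28.8% of 16166 genes lower and 28.1% higher on the whole array. SMC4 and SMC3 fell short of the threshold, and NCAPG and NCAPH were not compared. All 8 were measured on both arrays. The median difference was -1.21, beside 0.01 for all genes, with -1.42 over 5 condensin genes and -0.69 over 3 cohesin genes. The cantharidin and okadaic acid comparisons share the control array and are no independent support for each other. Of the 8 genes compared in both, 6 were lower in both (SMC2, NCAPD2, NCAPD3, NCAPG2, SMC1A and RAD21), and 7 had the more negative value under cantharidin. Over the 16049 genes compared in both, the shares were 21.1% and 57.7%. For NCAPD2 and NCAPG2, counted among the 7, the agents differed by less than the modelled error (0.06 ± 0.20 and 0.05 ± 0.29). With median scaling the order of the agents reversed for both (-0.09 and -0.10).

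**Figure D4:**
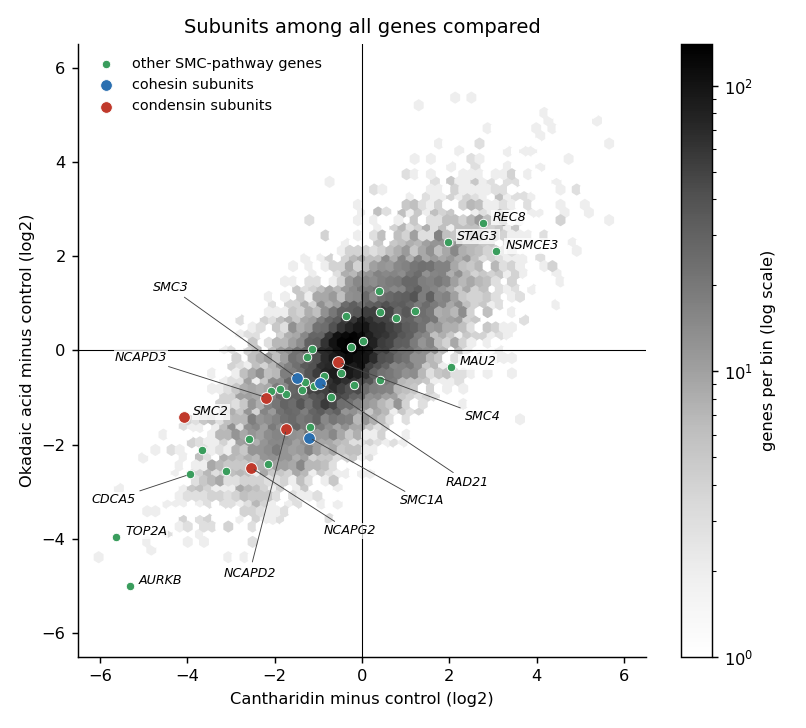
Log2 difference from control under cantharidin (horizontal) and okadaic acid (vertical) for all genes compared in both (grey bins, number of genes per bin on a log scale), with condensin genes in red, cohesin genes in blue and the other listed genes of the pathway in green. The 8 subunits shown all lie to the lower left of the origin, with SMC2 (dim on the cantharidin array, so that its place there is not well measured) farthest left and SMC4 nearest the origin, and the axes share the control array.

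The agents were also compared directly at the labelled dose of 20 µM, which for okadaic acid rests on its sample label, and at 24 h, without the control array. The signals of 3 of the 9 subunit genes compared were at least 1.5-fold higher under okadaic acid than under cantharidin. By value 2, SMC1A and NCAPG, were lower. Over all 16200 genes compared, 29.5% were higher and 22.3% lower, so both counts were close to the background. SMC2 entered this comparison through the okadaic acid array alone and NCAPG through the cantharidin array alone. Over the 7 genes measured on all 3 arrays, 2 were higher and 1 lower. The second SMC2 probe was not well above background under either agent and gives no fold here. SMC2 was at least 3.84-fold higher under okadaic acid, NCAPD3 2.27-fold higher (1.18 ± 0.21) and SMC3 1.89-fold higher (0.91 ± 0.21), and these 3 calls held in every alternative that kept the 1.5-fold threshold and gave a value, while SMC3 was short of a 2-fold threshold. SMC1A was 1.56-fold lower (-0.64 ± 0.36), a call that was lost with the normexp correction (-0.34) and without scaling (-0.25). NCAPG counts as lower by its value alone (-1.72 ± 1.47) and is no measured fall. That value rests on a dim okadaic acid signal, allows no fold and turned to 0.56 with dim signals set to the floor.

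The other subunits differed little between the agents. NCAPD2 differed by 0.06 ± 0.20 (1.05-fold), NCAPG2 by 0.05 ± 0.29 (1.04-fold), RAD21 by 0.28 ± 0.20 (1.21-fold) and SMC4 by 0.29 ± 0.20 (1.23-fold). For NCAPD2 and NCAPG2 the difference was smaller than the modelled spot error. The median over the subunits was 0.28, beside 0.13 for all genes. Without scaling between the arrays the whole array moved, with a median over all genes of 0.52, and RAD21 (0.67) and SMC4 (0.69) then passed the threshold.

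The other genes that build, load, protect or release these complexes were read from 36 listed genes, of which 35 had a matched probe and MCPH1 was not analysed here. Under cantharidin 18 of 33 compared were lower and 7 higher (all genes 34.1% and 27.5%), with a median of -0.87. Under okadaic acid 17 of 33 were lower and 9 higher (all genes 28.8% and 28.1%), with a median of -0.62. The count of higher genes under okadaic acid was thus close to that of the whole array. ESCO2 and PDS5B entered both comparisons through the control array alone. STAG1 and SMC5 each entered 1 of them through the treated array alone. Over the 30 genes measured on all 3 arrays, 16 were lower and 6 higher under cantharidin (median -0.90). Under okadaic acid 16 were lower and 8 higher (median -0.65). With dim signals at the floor the cantharidin median of all 33 was -1.07. Directly between the agents, 12 of 32 were higher and 4 lower under okadaic acid (all genes 29.5% and 22.3%). Over the 30 genes measured on all 3 arrays, these counts were 11 and 3. The counts of the shorter lists below are to be read against the same shares.

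Of the further cohesin subunits, STAG2, a HEAT-repeat protein bound to the ring, read 1185 ± 119 in control cells, 417 ± 42.1 under cantharidin and 796 ± 80.6 under okadaic acid, 2.58-fold and 1.78-fold lower, the second short of the threshold without scaling (-0.57). Its paralogue STAG1 was well above background under cantharidin alone, at 61.9 ± 8.48, at least 1.76-fold above control, and the normexp correction reduced this to 0.25 on the log2 scale. Of the meiotic cohesin genes, known for their role in germ cells, REC8 and STAG3 were higher with both agents. REC8, the meiotic kleisin in the place of RAD21, read 143 ± 17.0, 889 ± 89.1 and 1107 ± 112, or 6.85-fold and 6.5-fold higher. STAG3, the meiotic partner in the place of STAG2, read 360 ± 36.8, 1290 ± 129 and 2123 ± 213, 3.94-fold and 4.94-fold higher, and its other 2 probes were also past 1.5-fold in both comparisons. RAD21L1 was 1.14-fold and 1.67-fold lower, the second of which was lost with the normexp correction (-0.41) and without scaling (-0.49), and SMC1B had no array with signal well above background. RAD21 was thus lower and REC8 higher with both agents, although the okadaic acid call of RAD21 was lost without scaling. RAD21L1, also listed as meiotic, was not higher with either agent. REC8 had 1 probe with 1 spot, and the normexp correction reduced its log2 differences from 2.78 and 2.70 to 2.06 and 2.00.

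Among 12 genes of cohesin loading, release and protection, 7 were lower and 2 higher under cantharidin (all genes 34.1% and 27.5%). ESCO2 and PDS5B, both among the lower genes, were compared through the control array alone. Under okadaic acid 6 were lower and 3 higher (all genes 28.8% and 28.1%), so the count of higher genes there was close to that of the whole array. CDCA5, whose product sororin guards cohesin against release, was measured on 9 spots per array at 26308 ± 2631, 1542 ± 154 and 5073 ± 507, which is 15.5-fold and 6.19-fold lower. The loader pair diverged. MAU2 read 131 ± 15.1, 486 ± 49.0 and 122 ± 17.9, so it was 4.10-fold higher with cantharidin and, with okadaic acid, 1.28-fold lower. Its partner NIPBL, named after its values were seen, was 1.31-fold and 2.39-fold higher. ESCO1, an acetyltransferase that fixes cohesin on chromatin, was 1.28-fold lower with cantharidin and 1.65-fold higher with okadaic acid, and the normexp correction lost the second call (0.47). Its paralogue ESCO2, named after its values were seen, was at least 6.10-fold and at least 3.02-fold lower by its brightest probe. WAPL, which opens the ring, was 2.33-fold and 1.78-fold higher by its brightest probe, but a second probe gave 1.39-fold lower and a log2 difference of -0.01, and the median over probes lost both calls (0.37 and 0.41). Of the cleavage genes, PTTG1, the securin that restrains separase, was 4.22-fold and 1.82-fold lower, while the separase gene ESPL1 differed by 1.19-fold and 1.06-fold.

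The SMC5/6 complex, a relative of both complexes with a role in DNA repair, had 4 of 5 genes lower and 1 higher under cantharidin (all genes 34.1% and 27.5%). Under okadaic acid 4 of 6 were lower and 2 higher (all genes 28.8% and 28.1%). NSMCE1 was 4.45-fold and 5.35-fold lower, and NSMCE2, a SUMO ligase, 2.14-fold and 1.68-fold lower, the second again short of the threshold without scaling (-0.49). SMC5, an ATPase of the complex, was one of the 2 higher genes by its value alone. It was well above background only with okadaic acid, at 62.0 ± 13.5, its bound of at least 1.48-fold is under the threshold, and 4 alternatives brought its log2 difference of 0.69 under the threshold. NSMCE3, a MAGE-family subunit, ran against the rest at 447 ± 45.3, 3420 ± 342 and 2289 ± 229, or 8.43-fold and 4.29-fold higher. Of 8 partners in chromosome condensation, beside the same shares, 5 were lower and none higher under cantharidin, and 4 lower and 1 higher under okadaic acid. TOP2A, the topoisomerase that works beside condensin on mitotic chromosomes, read 1630 ± 163, 29.9 ± 6.58 and 125 ± 18.0 over 10 spots, 49.6-fold and 15.6-fold lower. Its cantharidin signal was only 1.36 times that array's floor, so the size of this fall is poorly measured. The normexp correction reduced its log2 differences from -5.63 and -3.96 to -3.78 and -3.14. AURKB, the kinase of the chromosomal passenger complex, differed by -5.32 and -4.99 on the log2 scale, and by -4.16 and -3.96 with the normexp correction. PHF8 differed by 1.02-fold and 1.14-fold. AKAP8 was 1.34-fold and 1.75-fold higher, the second past the threshold. Apart from SMC2, which has only a bound with cantharidin, no subunit differed from control by as much as TOP2A or AURKB with either agent. A value chosen after it was seen concerns MKI67, where the brightest probe differed by 1.40-fold and 1.41-fold and another was at least 3.78-fold and at least 1.87-fold lower.

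**Figure D5:**
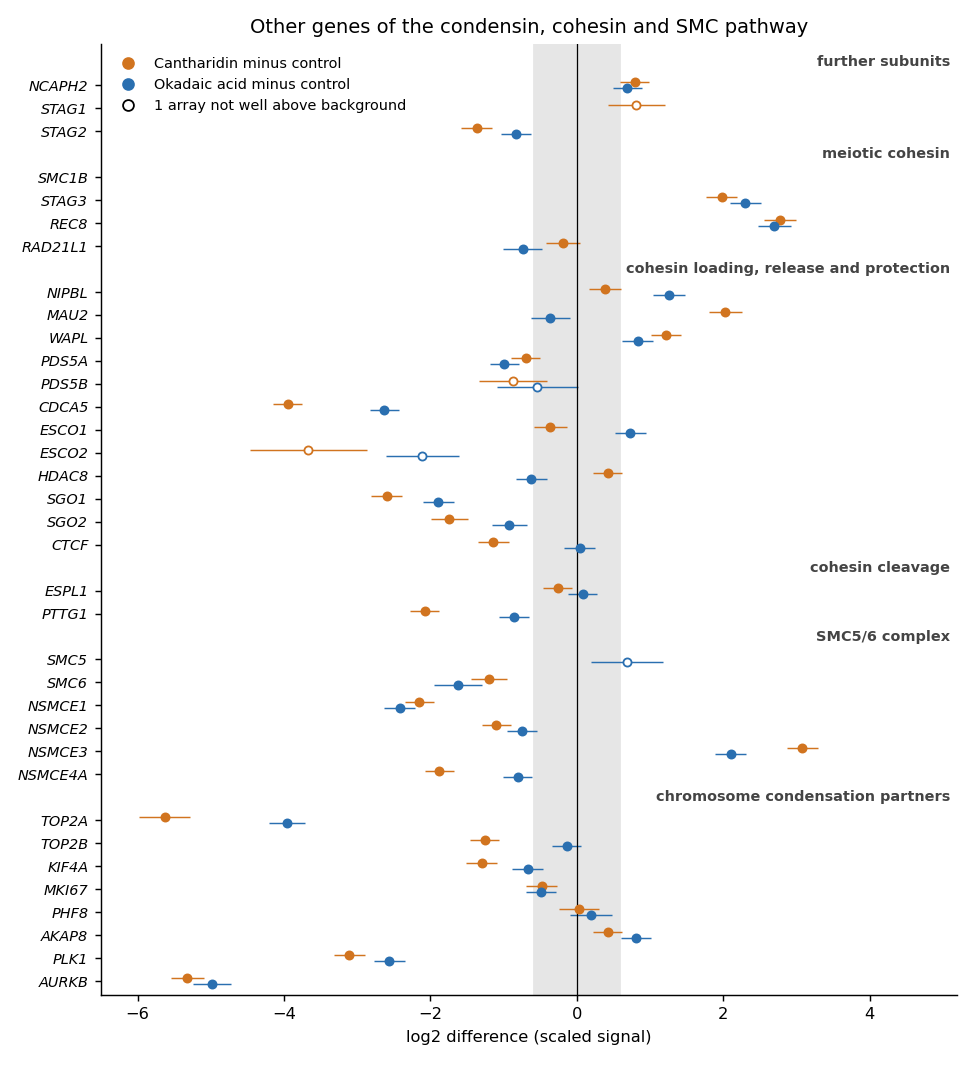
Log2 difference from control of the other listed genes of the pathway, each by its brightest probe, under cantharidin (orange) and okadaic acid (blue), with bars for the modelled spot error, open symbols where 1 array was not well above background and a grey band for differences under 1.5-fold. TOP2A and AURKB lie farthest left, and REC8, STAG3 and NSMCE3 lie to the right under both agents, while MAU2 lies to the right under cantharidin alone.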

How the data were processed

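RNA of control, cantharidin and okadaic acid PANC-1 cells was measured on 3 Agilent 1-colour arrays of 1 design, grouped by the sample labels. The authors deposited the scanner output of Feature Extraction 11.0.1.1, in which the processed intensity of each spot is background-subtracted and detrended within its array, with a modelled error and with flags for saturation, for outliers and for signal well above background. A second file that the authors deposited gives log2 values of 30923 probes after a normalization whose method is not stated, and it served as an alternative.

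Here spots with outlier flags were left out, log2 intensity was averaged over spots of a probe, and each array's 75th percentile was subtracted. The probe that was brightest on average over the arrays (mean log2 intensity) stood for its gene. A probe counted as well above background when more than 0.5 of its spots were flagged so. Accessions were named through RefSeq tables of GRCh38.p14, while the array annotation used hg19, so no gene coordinates other than the promoter windows are given. A difference was called at 1.5-fold, without a test or p-value. The modelled error of a log2 difference combines the errors of its 2 spots. Windows were scanned with the motif words given in the report. Those on the chromosome of RAD21 were left out for subunits, other listed genes and all genes alike. The members and gene lists were chosen with earlier results of these data known, so no test over them was made. Named were all 10 members with every probe, and up to 4 other genes per list, those with the largest and smallest differences and those against the rest. The nearest patterns are the 5 other genes closest to the condensin median by Euclidean distance, of which 1 is not reported here.

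The 12 alternatives were normexp background correction (limma, offset 50, on median spot and background intensity), quantile normalization, scaling to the median, to the 75th percentile of probes detected on every array, or not at all, no filter, a filter for detection on all 3 arrays, the deposited table, a 2-fold threshold, the median over probes, dim signals at the floor, and centring within 16 blocks. The calling steps were tested on simulated data. R 4.3.3, limma 3.58.1, Python 3.11.15, numpy 2.4.6, pandas 2.3.3 and matplotlib 3.10.9 were used.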

Additional observations from a re-analysis of the deposited data

How the results depend on the processing

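With 1 array per group, position on the slide, culture and treatment cannot be told apart, and depth is set by the floor of each array, so NCAPG and NCAPH had no measured change. The 7 subunit genes lower under cantharidin were lower in every alternative that kept the 1.5-fold threshold and gave them a value, as were 5 of 6 under okadaic acid (the exception was RAD21 without scaling). At 2-fold, RAD21 lost both calls, which left 6 and 5 genes. Of 210 alternative summary values, 193 stayed close to those reported and 17 moved. A count was called close when equal or within a factor of 1.5, which is a wide margin. A median was called close when it shifted by less than the median modelled error of its genes. No paired analysis was possible because each group had 1 array.

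Under okadaic acid the subunit median was -0.95 with normexp correction, -0.96 without scaling, -1.42 without a filter and -1.0 over genes measured on all 3 arrays. Without scaling, the median over all genes moved to -0.30 under cantharidin, 0.26 under okadaic acid and 0.52 between the agents. In that setting 11 of the other pathway genes were lower under okadaic acid, their median was -0.37, and between the agents 5 subunits and 19 other genes were higher, with medians of 0.67 and 0.74. At a 2-fold threshold 8 other genes were lower and 4 higher under okadaic acid. Subunits lower under okadaic acid than under cantharidin, 2 when the dim value of NCAPG is counted, numbered 0 with normexp correction and 1 each without scaling, with signal on all 3 arrays, at 2-fold and with dim signals at the floor, where NCAPG turned to 0.56.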

Other observations

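The median differences of the condensin genes were also set beside the differences of all other genes. The median of the 5 condensin genes compared with both agents was -2.19 under cantharidin and -1.42 under okadaic acid on the log2 scale. This point joins the cantharidin value of NCAPD3 to the okadaic acid value of SMC2 and is the pattern of no single condensin gene. Of 14173 genes outside the lists that were well above background on all 3 arrays, 75 lay within a distance of 0.25 of this point. None of the condensin genes lay within that distance, so the genes near the point do not share the pattern of any of them. Among the nearest were HDAC4, a histone deacetylase gene (-2.18 and -1.39), HARS2, the mitochondrial histidyl-tRNA synthetase gene (-2.18 and -1.45), FJX1 (-2.15 and -1.41) and BACE2, an aspartic protease gene (-2.22 and -1.45). Both coordinates use the control array.

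In the promoter windows searched for the other listed genes of the pathway, a CHR word was found in 11 of 31 genes (19.5% of all genes with a window searched). A CCAAT word was found in 21 (39.7%), an E2F word in 5 (3.99%) and an Sp1 word in 27 (48.3%).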
